A study of Rattus norvegicus with 38 samples.

Results

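Of the 24057 genes in the deposited tables, 131 were raised in failing hearts in both parts of the sinoatrial node and in both atria. A gene was taken when, in each of the 4 regions, its lowest failing value lay above its highest healthy value and the ratio of the failing to the healthy mean was at least 2. Levels are in TPM, each gene's share of a library's transcripts corrected for length, and 1 TPM was added to each mean before the ratio was formed, so that the fold of a weakly expressed gene is understated. The genes were thus chosen by their node and atrial TPM in failing and healthy hearts, and those values are given as a description with no test. The left ventricle entered no part of the choice and was read as the region left out.

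The libraries came from male Sprague-Dawley rats aged 10 weeks. The labels mark each library as failing or healthy, and their protocol describes pups whose ascending aorta was constricted at 1 week of age, with left ventricular hypertrophy as the outcome. The protocol text is the same on failing and healthy libraries, and the sources used here do not tell how the healthy rats were treated. Tissue was taken from the inferior sinoatrial node, the superior sinoatrial node, the right atrium, the left atrium and the left ventricle. There were 4 failing and 4 healthy libraries from each node part and atrium, and 4 failing and 2 healthy ones from the left ventricle. Library titles end in a numeric code that recurs from region to region, as in LV_0508 and RA_0508. The 4 codes of the failing libraries and the 4 of the healthy ones share none, so a batch tied to the codes and the health state cannot be told apart. Whether a code stands for 1 animal is not stated, and p-values therefore describe the spread between libraries, which may be technical.

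The sinoatrial node is the pacemaker of the heart, a small piece of specialised muscle embedded in connective tissue at the border of the right atrium. A constricted aorta makes the left ventricle pump against a raised pressure, and the load can pass backwards to the left atrium and, through the lungs, to the right side of the heart. Muscle growth, fibrosis, inflammation and a return to genes of the fetal heart are well-known responses of a loaded heart. Pacemaker tissue and working atrial muscle differ in ion channels, innervation and connective tissue content.

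The genes carry Ensembl rat identifiers that the files do not pair with names, and a RefSeq gene table of assembly GRCr8 matched 0 of them. No gene is named and no function is given, lists of pathways and of cell type markers were not applied, and the regions were not checked against marker genes. Identifiers are given for the 2 genes whose smallest fold over the 4 regions was the largest. In pieces of tissue, more cells of a type and more RNA per cell cannot be told apart. Libraries held from 17406473 to 27355777 estimated counts.

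In each region far more genes met the criteria than in all 4 together. The inferior node had 735 such genes (3.06% of all genes), the superior node 518 (2.15%), the right atrium 291 (1.21%) and the left atrium 526 (2.19%). All 131 genes met them in each region by construction, so nothing is read from these shares. A further 153 genes met them in 3 regions, 262 in 2 and 563 in 1. The groups failed to overlap in all 4 regions for 601 genes, whatever the size of the change, and the fold was at least 2 in all 4 for 179 genes, whatever the overlap. The 3 genes nearest to the fold threshold on the inside had a smallest fold of 2.01, 2.01 and 2.02, and the 3 nearest on the outside, whose groups did not overlap either, had 1.99, 1.99 and 1.98.

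**Figure D1:**
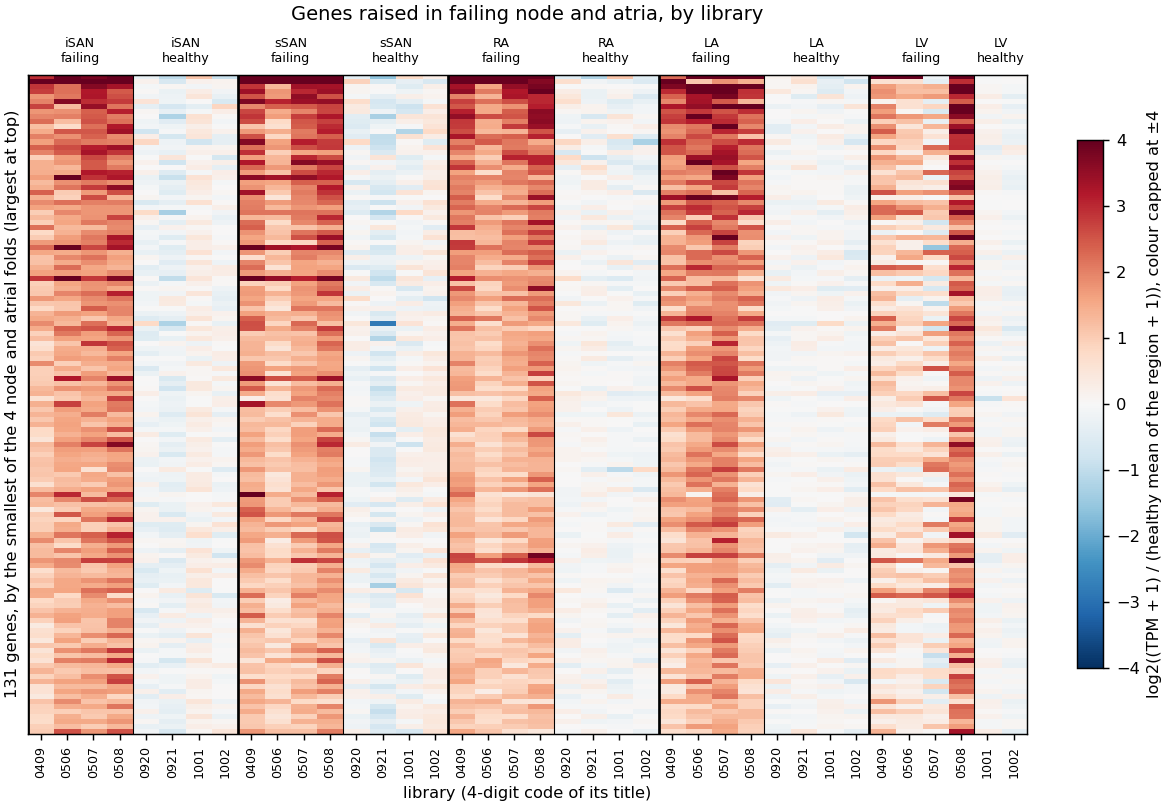
Colour gives log2 of (TPM + 1) over (healthy mean of the region + 1) for the 131 genes (rows, largest smallest fold at the top) in each library (columns, by region, failing left of healthy, with the code of each library). Failing node and atrial libraries are red for all 131 genes, and in the left ventricle LV_0508 is the most strongly coloured.

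The typical gene was raised about 3-fold, and a small number were raised much more. The inferior node had a median fold of 3.20 and a highest fold of 54.0, and the superior node had 3.03 and 124. The right atrium had a median of 2.64 and a highest fold of 110, and the left atrium had 3.17 and 98.7. Folds of at least 4 were reached by 39, 39, 34 and 45 genes, and folds of at least 10 by 4, 6, 3 and 6 genes, in the same order of regions. The left atrium had the largest of the 4 folds for 55 genes, the inferior node for 37, the superior node for 21 and the right atrium for 18. Each region thus held the largest fold for some genes, the left atrium and the inferior node most often. These folds are of TPM as deposited, which served the choice and move with the scale of each library. No order of the regions is read from them.

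The genes ranged from scarce to very abundant. Averaged over the 4 regions, the failing level ran from 2.55 to 4971 TPM with a median of 36.4 TPM, and the healthy level from 0.0544 to 2151 TPM with a median of 8.65 TPM. In failing tissue 35 genes averaged at least 100 TPM. The 12 most abundant made up 72.9% of the summed failing level of the 131 genes, and the most abundant alone 14.6%. By healthy level, 18 genes lay under 1 TPM, 51 between 1 and 10 TPM and 62 over 10 TPM. The median failing levels of these classes were 3.74, 18.1 and 117 TPM, and their median healthy levels 0.420, 3.63 and 29.8 TPM. A level near 0 in healthy tissue was uncommon: 7 of the 131 genes were listed at 0 in at least 1 healthy library of the 4 regions.

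Together the 131 genes took a larger share of the transcripts in every failing library than in any healthy library of the same region. In the node and atria this holds by construction, since each gene's lowest failing value lay above its highest healthy one. The shares there are given as a description. In the inferior node their summed level was 3.85% ± 0.648 of all TPM in failing and 1.28% ± 0.236 in healthy libraries (SD, n = 4 each). In the superior node it was 2.83% ± 0.577 in failing and 0.967% ± 0.296 in healthy libraries (SD, n = 4 each). The right atrium had 3.39% ± 0.657 in failing and 1.31% ± 0.0594 in healthy libraries, and the left atrium 3.54% ± 0.783 and 1.10% ± 0.107 (SD, n = 4 each). In the left ventricle, which did not enter the choice, the share was 1.71% in LV_0409, 1.54% in LV_0506, 1.72% in LV_0507 and 3.66% in LV_0508, all failing, against 0.826% in LV_1001 and 0.835% in LV_1002, both healthy. All 4 failing left ventricles thus lay above both healthy ones, and LV_0508 lay far above the other failing ones.

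ENSRNOG00000006151 had the largest smallest fold, and its failing level varied widely from library to library. In the inferior node it had 417, 1217, 750 and 1687 TPM in the failing libraries iSAN0409, iSAN0506, iSAN0507 and iSAN0508, against 42.7, 25.6, 116 and 28.2 TPM in the healthy libraries SB_0920, SB_0921, SB_1001 and SB_1002. In the superior node the failing values were 136, 89.8, 266 and 1567 TPM and the healthy ones 3.28, 0.892, 8.82 and 5.99 TPM, with the codes in that order here and in the regions that follow. The groups lay apart in both node parts, and the healthy inferior node stood well above the other healthy regions. In the right atrium the gene had 93.0, 134, 393 and 1758 TPM in failing libraries, against 2.83, 1.33, 10.7 and 2.86 TPM in healthy ones. In the left atrium it had 13.1, 105, 823 and 199.6 TPM in failing libraries, against 2.23, 3.09, 0.776 and 1.51 TPM in healthy ones. The fold was 18.8 for the inferior and 89.8 for the superior node, and 110 for the right and 98.7 for the left atrium, so the smallest belonged to the region with the highest healthy level.

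ENSRNOG00000008015 was raised most in the node. In the inferior node it had 116, 499, 129 and 259 TPM in failing libraries, against 4.20, 2.004, 4.30 and 4.14 TPM in healthy ones, a fold of 54.0. In the superior node it had 588, 211, 151 and 316 TPM in failing libraries, against 3.85, 0.679, 1.05 and 0.644 TPM in healthy ones, a fold of 124. The node values of the failing group exceeded the healthy ones by more than an order of magnitude in every library. In the right atrium the gene had 144, 57.1, 52.3 and 43.4 TPM in failing libraries, against 4.49, 2.17, 1.83 and 1.39 TPM in healthy ones, a fold of 21.7. In the left atrium it had 71.6, 5.25, 9.31 and 7.04 TPM in failing libraries, against 2.17, 3.63, 1.39 and 0.703 TPM in healthy ones, a fold of 8.17. The groups lay apart there too, but by little except in LA_0409.

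**Figure D2:**
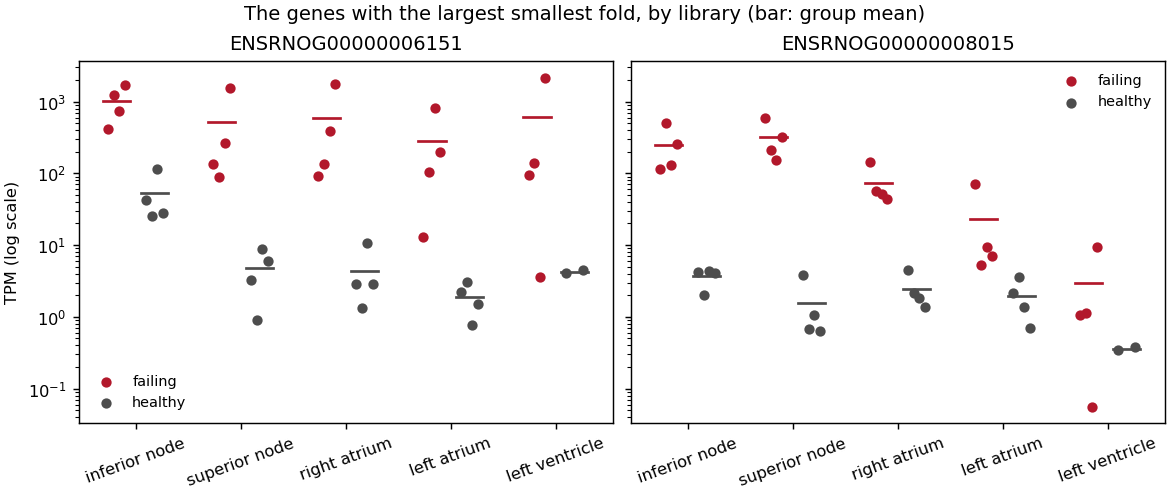
Each point is 1 library and each bar a group mean, in TPM on a log scale, for ENSRNOG00000006151 (left panel) and ENSRNOG00000008015 (right panel) in 5 regions, failing left of healthy. In the left ventricle the failing library LV_0507 lies below both healthy libraries for both genes, and LV_0508 is the highest.

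The failing libraries of a region differed from each other, and 1 code led in 3 of the 4 regions. For each library the median over the 131 genes was taken of log2 of (TPM + 1) over the healthy mean of its region + 1. In the inferior node this median was 1.15 in iSAN0409, 1.55 in iSAN0506, 1.71 in iSAN0507 and 1.95 in iSAN0508, all failing, against -0.22 to 0.22 in healthy libraries. In the superior node it was 1.61, 1.03, 1.60 and 1.94 in failing libraries, against -0.38 to 0.25 in healthy ones. In the right atrium it was 1.46, 1.03, 1.35 and 1.70 in failing libraries, against -0.07 to 0.06 in healthy ones. The libraries iSAN0508, sSAN0508 and RA_0508, which share a code, were the highest in these 3 regions. In the left atrium the order was another, with 1.29, 1.68, 2.09 and 1.34 in failing libraries, against -0.07 to 0.04 in healthy ones, and LA_0507 was the highest.

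The same libraries led when counted gene by gene. These counts use the values that served the choice, so they describe it, and nothing is read from the shares beside them. The highest failing value was that of iSAN0508 for 68 of the 131 genes, of sSAN0508 for 79 and of RA_0508 for 83. Over the 12528 genes that averaged at least 1 TPM, these 3 libraries held the highest failing value of their region for 25.8%, 23.1% and 12.3%. In the left atrium LA_0507 held the highest value for 90 of the 131 genes, and for 19.5% of the 12528. The libraries in which most of the 12528 genes peaked were others: iSAN0506 (62.0%), sSAN0409 (53.4%), RA_0506 (50.6%) and LA_0506 (52.3%).

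**Figure D3:**
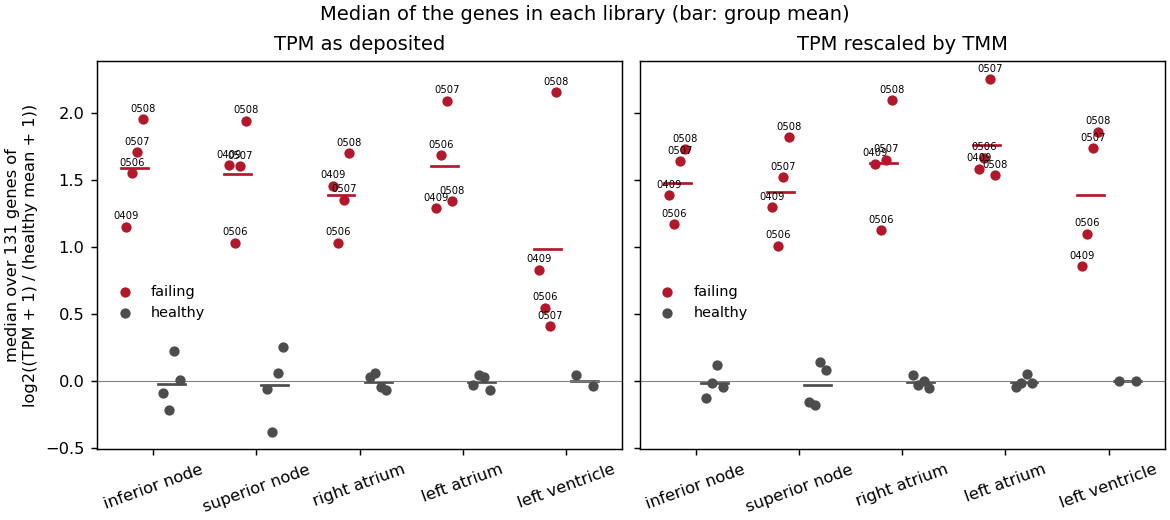
Each point is 1 library: the median over the 131 genes of log2 of (TPM + 1) over (healthy mean of the region + 1), from TPM as deposited (left panel) and from TPM rescaled by TMM (right panel), failing left of healthy, with the codes of failing libraries beside the points and a bar at each group mean. LV_0507 is the lowest failing left ventricle at 0.41 in the left panel and the second highest at 1.73 in the right panel.

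In the left ventricle, all 131 genes had a higher mean in failing than in healthy hearts, against 29.2% of all genes. The median fold was 2.48, with a range from 1.05 to 115, and 89 of the 131 genes (67.9%) had a fold of at least 2, against 1.72% of all genes. The lowest failing value lay above the higher healthy value for 71 of the 131 genes (54.2%), against 2.87% of all genes and 4.29% of the 13670 genes that passed a filter on low counts. Both criteria were met by 62 of the 131 genes, against 0.927% of all genes. All 131 genes averaged at least 1 TPM over all libraries, against 12528 of the 24057 genes in the tables. The shares over all genes thus include unexpressed genes, which can hardly meet these criteria. The left ventricle gave the largest of the 5 folds for 14 genes and the smallest for 67. The 4 other folds had to reach 2 and that of the left ventricle did not, so this ranking is not free of the choice. The ventricle was left out of the choice, but its codes were not, since the node and atrial libraries bear them too.

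In TPM as deposited, the folds in the left ventricle depended most on LV_0508, and the overlap of the groups most on LV_0507. The failing library LV_0508 lay above both healthy libraries for all 131 genes, LV_0409 for 117, LV_0506 for 107 and LV_0507 for 81. Over all genes in the tables the shares above both healthy libraries were 44.0% in LV_0508, 27.9% in LV_0409, 10.8% in LV_0506 and 8.10% in LV_0507. The median log2 ratio of the 131 genes was 2.15 in LV_0508, 0.83 in LV_0409, 0.55 in LV_0506 and 0.41 in LV_0507, against -0.04 and 0.04 in the healthy libraries. LV_0508 held the highest failing value for 121 of the 131 genes, and for 68.4% of the 12528 genes that averaged at least 1 TPM. Without LV_0508 the number of genes with a fold of at least 2 was 41, against 0.732% of all genes, the median fold was 1.67, and 122 of the 131 genes still had a higher mean in failing hearts. The number whose groups did not overlap was 71 without LV_0508, against 3.05% of all genes, and 100 without LV_0507, against 6.19%.

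The low values of LV_0507 depended on scale. Over the 12528 genes the median log2 ratio was -0.98 in this library, against 0.24 in LV_0508, 0.01 in LV_0409 and -0.44 in LV_0506, so that most genes in it lay below the healthy mean in TPM. TPM are shares of a library, and the trimmed mean of M-values (TMM), which sets the bulk of the genes level between libraries, gave a factor of 0.265 for LV_0507, against 0.893 for LV_0508, 0.704 for LV_0409 and 0.461 for LV_0506, and 0.730 and 0.670 for the healthy libraries. After rescaling by these factors, the median log2 ratio of the 131 genes was 1.73 in LV_0507, 1.86 in LV_0508, 0.85 in LV_0409 and 1.10 in LV_0506. Then 112 of the 131 genes had groups that did not overlap, against 9.39% of all genes, and 113 had a fold of at least 2, against 3.53%. Without LV_0508 these numbers were 112 and 94, against 11.8% and 3.52% of all genes. For ENSRNOG00000006151 the deposited values were 95.6, 139, 3.56 and 2163 TPM in the failing libraries LV_0409, LV_0506, LV_0507 and LV_0508, against 4.05 and 4.43 TPM in healthy ones, and the groups overlapped. After rescaling, its lowest failing value was 13.4, in LV_0507, against 5.55 and 6.61 in the healthy libraries. ENSRNOG00000008015 had 1.07, 1.13, 0.0558 and 9.46 TPM in failing libraries, against 0.342 and 0.374 TPM in healthy ones, and LV_0507 stayed below both healthy libraries after rescaling, with 0.210 against 0.468 and 0.558.

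With edgeR's quasi-likelihood test, which works on counts scaled by TMM, 0 of the 128 genes that passed the filter on low counts had an adjusted p under 0.05 in the left ventricle, as did 0% of the 13670 genes tested. The lowest adjusted p among the 128 was 0.126. The fitted log2 difference was above 0 for all 128, against 52% of the genes tested, with a median of 1.97, against 0.03 over the genes tested. An unadjusted p under 0.05 with a higher level in failing hearts was found for 103 of the 128, against 7.17% of the genes tested. Limma on log2(TPM + 1) also called 0, whereas DESeq2 called 60 of the 128 higher, against 2.05% of the genes tested. A fit of all 38 libraries, which takes the spread from every region, called 110 of the 131 higher, against 11.5%. Most of that spread comes from the node and atrial libraries that served the choice, so this count is not held out from it. The fit also treats libraries that share a code as independent. The biological coefficient of variation in the left ventricle was 0.401, against 0.125 to 0.200 in the comparisons of healthy regions. The left ventricular fit holds failing libraries and the others only healthy ones, so region and health state are mixed in this contrast. ENSRNOG00000006151 had a log2 difference of 6.91 with an SE of 2.27 (edgeR adjusted p = 0.42), which was 4.63 when LV_0508 was left out; DESeq2 called it, with an adjusted p of 0.0059. ENSRNOG00000008015 had a log2 difference of 2.89 with an SE of 1.37 (edgeR adjusted p = 0.47), which was 1.48 when LV_0508 was left out.

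The share of genes raised in the left ventricle was larger the more of the 4 other regions had met the criteria. Groups that did not overlap in the left ventricle were seen for 54.2% of the genes that met them in 4 regions, 34.0% in 3, 26.3% in 2, 15.3% in 1 and 1.80% in 0. The median fold in the left ventricle was 2.48, 1.96, 1.61, 1.33 and 1.00 in the same order. The genes raised in all 4 regions were thus at the upper end of a gradient. The sets were not matched for expression level. All 131 genes averaged at least 1 TPM over all libraries, against 12528 of the 24057 genes in the tables, and the genes that met the criteria in 0 regions include the unexpressed ones. The recurring codes enter this gradient too, and their part in it was not tested.

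**Figure D4:**
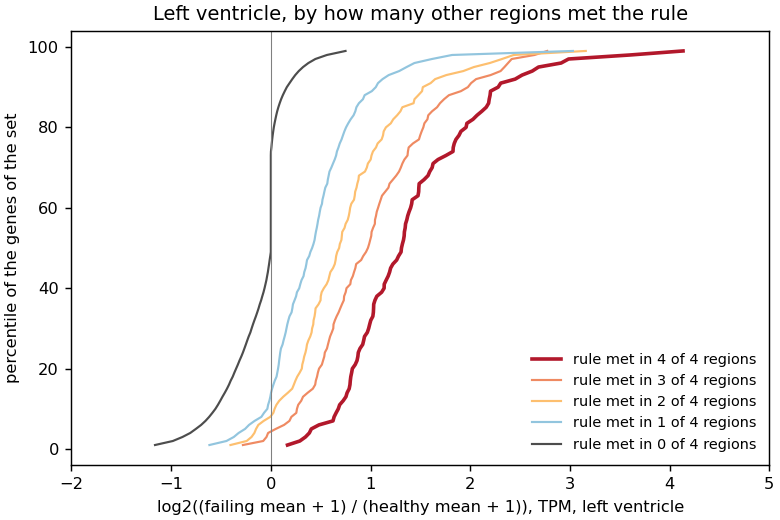
Each line gives the percentiles (y axis) of log2 of (failing mean + 1) over (healthy mean + 1) in TPM in the left ventricle (x axis), for genes that met the criteria in 4, 3, 2, 1 or 0 of the node and atrial regions. The line of the 131 genes lies furthest to the right, with a median fold of 2.48, and that of genes meeting them in 0 regions lies around a fold of 1.00.

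By healthy level, the genes over 10 TPM kept apart most often in the left ventricle, and the 2 lower classes were close to each other. The groups did not overlap for 8 of the 18 genes under 1 TPM, 24 of the 51 between 1 and 10 TPM and 39 of the 62 over 10 TPM. Over all genes, whatever their level, the share was 2.87%. The median fold there was 1.91, 2.64 and 2.47 in the same order, and the 1 TPM added to each mean holds down that of the lowest class. By the region with the largest of the 4 folds, the groups did not overlap in the left ventricle for 34 of the 55 genes led by the left atrium, 24 of the 37 led by the inferior node, 8 of the 21 led by the superior node and 5 of the 18 led by the right atrium. The corresponding median folds were 2.50, 2.54, 2.20 and 1.91. These differences between classes were not tested.

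Regions of healthy hearts were set beside each other for the same genes. The healthy level of each region entered the choice, through the highest healthy value and the healthy mean, so these comparisons are not independent of it. Their calls are given as a description of the genes and support no difference. In the inferior node edgeR placed 48 of the 120 genes with enough counts above the right atrium and 1 below it (adjusted p under 0.05), which is 40.0% and 0.833%, against 10.7% and 6.89% of the 14129 genes in the fit. The median log2 difference was 0.43, against 0.01 over all genes in the fit, and 22 of the 48 genes lay higher by at least 1 on the log2 scale. In the fit of all 38 libraries 18 genes lay above and 1 below, against 6.02% and 1.44% of all genes in it.

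In the superior node 36 of the 120 genes lay above the right atrium and 2 below it with edgeR, which is 30% and 1.67%, against 14.1% and 9.03% of the 14108 genes in the fit. The median log2 difference was 0.38, against 0.02 over all genes in the fit, and 19 of the 36 lay higher by at least 1. Both node comparisons use the same right atrial libraries. Without RA_0921 the number called was 22, all higher, against 8.79% of all genes higher and 4.75% lower. Without RA_1001 it was 25, all higher, against 9.66% and 5.41%, and without RA_1002 it was 22, all higher, against 9.66% and 5.12%. On unscaled log2(TPM + 1) values, where the median over all genes was -0.31, limma placed 11 above and 4 below, against 5.46% and 34.6% of all genes. After TMM rescaling of the TPM it placed 33 above and 2 below, against 12.2% and 9.67%.

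Between the healthy atria the genes lay on both sides. In the left atrium 10 of the 120 genes lay above and 11 below their right atrial level with edgeR, which is 8.33% and 9.17%, against 4.67% and 4.47% of the 14024 genes in the fit. The median log2 difference was -0.04, against 0.00 over all genes in the fit. With libraries paired by code, through a block in the fit, 25 lay above and 23 below, against 9.65% and 9.55% of all genes. On unscaled log2(TPM + 1) values limma placed 10 above and 18 below, against 3.47% and 4.59%. In the fit of all 38 libraries 3 lay above and 0 below, against 0.805% and 0.621%.

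The healthy level of ENSRNOG00000006151 was 53.2 ± 42.8 TPM in the inferior node and 4.42 ± 4.22 TPM in the right atrium (SD, n = 4 each). EdgeR fitted a difference of 3.53 on the log2 scale with an SE of 0.77, and of 3.63 with an SE of 0.20 when paired by code. That of ENSRNOG00000008015 was 3.66 ± 1.11 TPM in the inferior node and 2.47 ± 1.38 TPM in the right atrium (SD, n = 4 each), and the fitted difference was 0.57 on the log2 scale with an SE of 0.35.

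**Figure D5:**
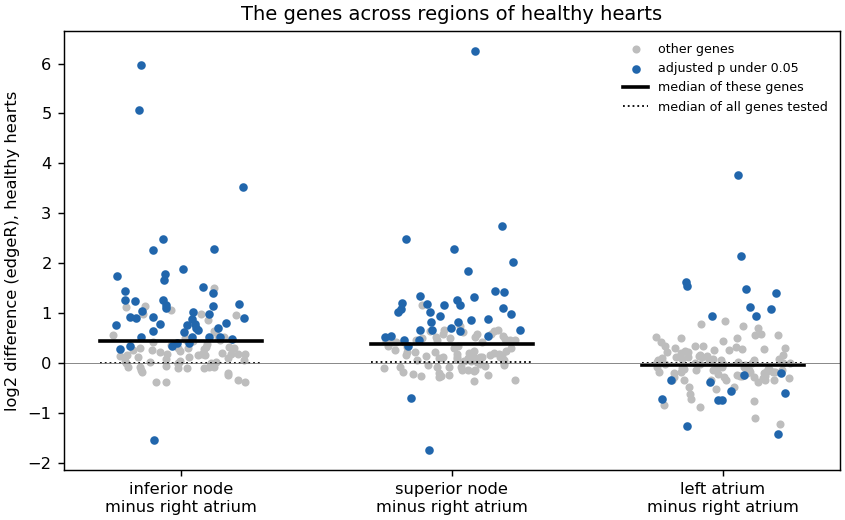
Each point is 1 of the 120 genes tested in a comparison, at its edgeR log2 difference between regions of healthy hearts, in blue where the adjusted p was under 0.05. The solid bars (medians of 0.43, 0.38 and -0.04) stand above the dotted median of all genes tested for both node parts and beside it for the left atrium.

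By mean TPM as deposited, the inferior node was the highest of the 4 regions for most of the 131 genes in both health states. In failing hearts the highest of the 4 regional means was in the inferior node for 81 of the 131 genes, in the left atrium for 35, in the superior node for 8 and in the right atrium for 7. In healthy hearts it was in the inferior node for 88, in the left atrium for 18, in the superior node for 5 and in the right atrium for 20. These values served the choice and move with the scale of each library. The same count was not made over all genes, so the lead of the inferior node is not read as a trait of these genes.

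The genes were short. Length was not a criterion of the choice. The ratio of failing to healthy levels moved with length over all genes, as given below, so the choice is not free of it. The ratio of estimated counts to TPM gives the length of a gene's transcripts relative to other genes, and it could be formed for 121 of the 131 genes. Their median length was 0.497 of that of the median gene, with quartiles of 0.227 and 0.778, against quartiles of 0.625 and 1.54 over the 13474 genes with such a ratio. Of the 121 genes, 77 fell in the shortest quartile group of all genes, 26 in the second, 10 in the third and 8 in the longest.

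The difference between failing and healthy hearts moved with length over all genes, too. In the inferior node the median log2 fold of all genes was 0.27 in the shortest quartile group and -0.04 in the longest, and the superior node had 0.24 and 0.02. In the right atrium it was 0.03 in the shortest and -0.37 in the longest quartile group, in the left atrium 0.06 and -0.30, and in the left ventricle -0.00 and -0.28. In each region the median fell from each quartile group to the next longer one. The 8 long genes had a median fold of 2.98 in the left ventricle and groups that did not overlap for 5, and the 77 short ones had 2.55 and 49. The part of transcript length in the choice of the genes was not tested.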

How the data were processed

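RNA was sequenced from 38 libraries. The submitters' processing notes name Trimmomatic 0.39, a read trimmer, and kallisto 0.48.0, a transcript quantifier. The build, the annotation and the step to gene level are not given in sources used here. The deposited gene tables hold estimated counts, already scaled for transcript length as the constant ratio to TPM shows, and the authors' TPM, which have the same sum in each library. The deposited transcript tables were not used.

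The members, lists and rules were chosen with earlier results of these data known. The choice of the 131 genes and all folds used TPM with 1 added to each mean. Estimated counts were rounded to whole numbers, filtered with filterByExpr (count minimum 10, total minimum 15), scaled with TMM and tested over all genes in R 4.3.3 with edgeR 4.0.16 (quasi-likelihood, robust), each fit holding only the groups compared, p-values being adjusted by Benjamini-Hochberg and called under 0.05. Standard errors come from the test statistic. Alternatives were DESeq2 1.42.0, its size factors in edgeR, no filter, limma 3.58.1 on log2(TPM + 1) and log2(TPM + 0.1), a joint fit of all 38 libraries, a block for the code and each library left out. Alternatives chosen after seeing the data were limma on TPM rescaled by TMM, and the rescaled left ventricle counts without LV_0508. The rule of choice and the edgeR fits reported first were tested on simulated data. For the rule, the simulated libraries varied less than those of the 131 genes, and the planted changes were larger than their typical fold. That test therefore does not show how the rule performs on these data. DESeq2, limma, the joint fit and the block for the code were not.

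Healthy libraries with the same code deviated together from their group means: over genes, the correlation with the right atrial library of that code was 0.17 to 0.30 for the inferior node, 0.20 to 0.23 for the superior node and 0.31 to 0.36 for the left atrium. It passed 0.1 in every pair. The fits reported first have no block for the code, and the blocked value stands beside a count that it moves by over 1.5 times. Identifiers given are the 2 with the largest smallest fold, since the rule for named genes by symbol was not applied. Counts carry no molecular identifiers, and the total per library limits the precision of low values.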

Additional observations from a re-analysis of the deposited data

Results flagged for a closer look

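Examined were 36 group values of 4 libraries each (9 groups, the summed level, the median log2 ratio and the 2 identified genes). In 9 of them 1 library lay far from the other 3. Chance gives about 1 in 20 for normally distributed values. The TPM of the 2 genes were used unlogged and need not be so distributed, so that rate may not hold for them. The values within a library are not independent of each other. In the failing left ventricle, LV_0508 stood apart in the summed level of the 131 genes (3.66% of all TPM), in ENSRNOG00000006151 (2163 TPM) and in ENSRNOG00000008015 (9.46 TPM). sSAN0508 stood apart for ENSRNOG00000006151 in the failing superior node, with 1567 TPM. For ENSRNOG00000008015 RA_0409 stood apart in the failing right atrium (144 TPM) and LA_0409 in the failing left atrium (71.6 TPM). Among healthy libraries, RA_1001 stood apart for ENSRNOG00000006151 in the right atrium (10.7 TPM). For ENSRNOG00000008015, the healthy library ST_0920 stood apart in the superior node (3.85 TPM) and SB_0921 in the inferior node (2.004 TPM).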

How the results depend on the processing

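The number of genes raised in all 4 regions was 197 with 0.1 TPM added in place of 1, 368 at a threshold of 1.5 and 33 at a threshold of 3. TMM-scaled CPM gave 153 genes, of which 103 were among the 131, and TPM rescaled by TMM gave 150, of which 108 were. Leaving out 1 library gave 113 to 145. In the left ventricle, the number whose groups did not overlap was 111 with TMM-scaled CPM, 112 with rescaled TPM and 112 with rescaled TPM without LV_0508. The number with a fold of at least 2 was 41 to 102 with 1 library left out, the lowest without LV_0508. The edgeR count of 0 there was 110 in the fit of all 38 libraries, 60 with DESeq2, and 0 to 3 with 1 library left out, the 3 without LV_0507. In healthy hearts, the fit of all 38 libraries called 19 genes for the inferior node, 17 for the superior node and 3 for the left atrium, each against the right atrium. For the superior node limma called 15 with 1 TPM added and 14 with 0.1, and leaving out 1 library gave 22 to 37. For the left atrium DESeq2 called 33. The code as a replicate block gave 59, 35 and 48 for the inferior node, the superior node and the left atrium. No paired fit was made for the left ventricle, where no code occurs in both health states. The other alternatives moved these numbers by less than 1.5 times, and the causes of those above were not tested.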

Other observations

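The mirrored criteria, with every failing value below every healthy one and the healthy mean at least 2 times the failing one, were met in all 4 regions by 29 genes, against 131 raised ones. The raised genes also varied more between libraries of a group than other genes. Their median coefficient of variation in the failing right atrium was 31.5%, against 18.01% over genes that averaged at least 1 TPM, and in the failing left atrium 35.1%, against 18.7%. In the healthy right atrium it was 18.4%, against 10.0%, and in the healthy left atrium 16.2%, against 10.1%. In the failing left ventricle it was 78.3%, against 54.4%, and in the healthy left ventricle, with 2 libraries, 18.1%, against 9.65%.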
